A study of Homo sapiens with 6 samples.

Results

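The clustered protocadherin genes were examined in CUT&Tag peak lists of CTCF and SMC1 from IMR90 cells. The members were the 53 protein-coding genes of human chromosome 5 whose symbols start with PCDHA, PCDHB or PCDHG, out of 19675 on GRCh38 whose 5′ end is known. They comprised 13 alternate alpha genes (PCDHA1 to PCDHA13), 16 beta genes, 12 gamma A genes, 7 gamma B genes and 5 C-type genes (PCDHAC1, PCDHAC2, PCDHGC3, PCDHGC4 and PCDHGC5), and all 53 were annotated on the plus strand. The region taken was chr5:140686140-141612975, which is the span from the 5′ end of PCDHA1 to the end of the gamma genes with 100 kb added on each side. Of the peaks in the 6 lists, 65 had their summit in this region, 36 from CTCF and 29 from SMC1.

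IMR90 is a strain of human lung fibroblasts with a limited number of divisions in culture. CUT&Tag uses an antibody to bring a transposase to the chromatin that carries its target, so that DNA is cut and tagged there. Each antibody was applied once to control cells of low passage, once to cells treated with ICM and once to senescent cells of high passage, which gave 6 libraries with 1 library per group and hence no test between conditions. ICM (inflachromene) is a small molecule that binds HMGB proteins, and its use here was meant to bring on a senescence-like state. The p number in the sample titles was 21 for the CTCF control, 16 for the SMC1 control and for both ICM libraries, and 34 for both senescent libraries, so the CTCF control and the CTCF ICM library differed in this number as well as in treatment. Treatment lasted 6 days in the title of the CTCF ICM library, whereas that of the SMC1 ICM library gives no duration. No allele or transgene was named for any group, and the peak lists hold no expression values against which the fibroblast label could be checked.

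Clustered protocadherins are cell-surface adhesion proteins of the cadherin superfamily, best known in neurons, where each cell uses its own small set of them as a molecular identity. The genes lie in tandem. In the alpha and gamma clusters every member has its own promoter and large variable first exon, which is spliced to constant exons shared by the whole cluster, whereas beta genes consist of a single variable exon. Most variable promoters carry a conserved sequence element with a CGCT core, and in cells that use them CTCF and cohesin bring a chosen promoter together with distal enhancers. CTCF is a zinc-finger protein that binds DNA at insulators and loop anchors, and SMC1 is a subunit of cohesin, the ring-shaped complex that extrudes loops and stops at bound CTCF.

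Because most promoters of these clusters carry the same short element, the reference letters around it are shown first. They are RefSeq promoter windows (GRCh38.p14, plus strand), which reach from 250 bases before to 50 bases after the annotated 5′ end and were found for 46 of the 53 members. Each line below gives 40 bases around 1 CGCT box in capitals, the one nearest the 5′ end among those at least 20 bases before it. All 11 gamma A members with such a stretch are given, since gamma A held the most members with a CTCF peak, followed by 2 alpha members, which had none, and the 2 beta members that had one.

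PCDHGA1, chr5:141330399-141330438: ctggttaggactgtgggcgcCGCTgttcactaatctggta
PCDHGA2, chr5:141338699-141338738: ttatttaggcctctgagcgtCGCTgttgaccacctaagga
PCDHGA3, chr5:141343763-141343802: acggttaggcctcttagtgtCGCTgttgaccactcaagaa
PCDHGA4, chr5:141354956-141354995: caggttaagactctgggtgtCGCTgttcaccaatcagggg
PCDHGA5, chr5:141364103-141364142: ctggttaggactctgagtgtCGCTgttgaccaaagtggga
PCDHGA6, chr5:141373831-141373870: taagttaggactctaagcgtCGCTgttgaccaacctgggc
PCDHGA7, chr5:141382645-141382684: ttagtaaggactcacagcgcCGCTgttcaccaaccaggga
PCDHGA8, chr5:141392564-141392603: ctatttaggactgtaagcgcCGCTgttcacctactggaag
PCDHGA9, chr5:141402710-141402749: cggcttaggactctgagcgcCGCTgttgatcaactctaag
PCDHGA10, chr5:141412927-141412966: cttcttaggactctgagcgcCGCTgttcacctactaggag
PCDHGA11, chr5:141420968-141421007: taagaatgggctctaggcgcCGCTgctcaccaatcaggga
PCDHA1, chr5:140786082-140786121: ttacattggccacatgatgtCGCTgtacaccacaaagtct
PCDHA2, chr5:140794777-140794816: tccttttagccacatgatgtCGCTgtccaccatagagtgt
PCDHB2, chr5:141094540-141094579: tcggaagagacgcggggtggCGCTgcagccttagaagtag
PCDHB13, chr5:141213861-141213900: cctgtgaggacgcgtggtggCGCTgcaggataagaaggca

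Over all 46 windows, CGCT was found on either strand in 45 (97.8%), against 70.0% of the 35116 windows of the table. Longer forms, searched on both strands, were shared within subfamilies. ATGTCGCT stood in 9 of 11 alternate alpha windows and in 0.234% of all windows, GGTGGCGCT in 13 of 14 beta windows and in 0.501% of all windows, and CGCTGTT in 10 of 11 gamma A windows and in 2.26% of all windows. The first 2 forms stood in no window of another subfamily, and CGCTGTT also stood in those of PCDHB3, PCDHGB4 and PCDHGB5. These 3 forms were read off the members' own promoters, so the counts describe how alike the members are and test nothing, and each of the 3 contains or overlaps the CGCT box. The core CNAGNNGGC, a short form of the usual CTCF motif, was found in 4 of the 46 windows (8.70%) and in 24.6% of all windows. The 4 were those of PCDHAC1, PCDHB7, PCDHB9 and PCDHGB3. In PCDHB7 and PCDHB9 the core ran into the CGCT box and shared its first letter, so the 2 were not separate elements there. Only exact matches to this core were counted, so a window without one may still hold a CTCF site. Compared letter by letter without gaps, the stretches were identical at a median of 70% of positions between gamma A members, 62.5% between alternate alpha members, 60% between beta members and 30% between gamma B members. The gamma B value depends on the choice of box, since PCDHGB1, PCDHGB3, PCDHGB4, PCDHGB5 and PCDHGB6 each had 2 boxes to choose from. In PCDHGB4 and PCDHGB5 the CGCTGTT form stood at the box not chosen, so unlike boxes may have been compared. The 30% is therefore no measure of whether gamma B promoters share the element. Among gamma B members, the stretches of PCDHGB4 and PCDHGB5 matched at 97.5% of positions, and so did those of PCDHGB6 and PCDHGB7. How reads that fit several such copies were placed is not given in the sources used here, so a peak at one of them is uncertain as to the copy.

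The gamma B and C-type promoters that carried a peak in more than 1 list follow with their whole 250 bases before the 5′ end, every CGCT in capitals, because PCDHGB4 and PCDHGC3 have several boxes there.

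PCDHGB4, chr5:141387448-141387697: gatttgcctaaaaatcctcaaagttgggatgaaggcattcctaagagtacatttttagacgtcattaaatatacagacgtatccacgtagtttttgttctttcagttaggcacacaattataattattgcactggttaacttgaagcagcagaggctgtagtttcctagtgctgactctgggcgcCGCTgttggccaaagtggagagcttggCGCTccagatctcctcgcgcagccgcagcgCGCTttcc
PCDHGB7, chr5:141417427-141417676: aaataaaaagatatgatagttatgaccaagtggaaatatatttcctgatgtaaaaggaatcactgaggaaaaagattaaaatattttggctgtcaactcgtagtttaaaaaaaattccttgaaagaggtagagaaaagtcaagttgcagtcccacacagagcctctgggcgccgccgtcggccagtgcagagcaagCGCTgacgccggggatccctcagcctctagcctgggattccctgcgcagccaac
PCDHGC3, chr5:141475716-141475965: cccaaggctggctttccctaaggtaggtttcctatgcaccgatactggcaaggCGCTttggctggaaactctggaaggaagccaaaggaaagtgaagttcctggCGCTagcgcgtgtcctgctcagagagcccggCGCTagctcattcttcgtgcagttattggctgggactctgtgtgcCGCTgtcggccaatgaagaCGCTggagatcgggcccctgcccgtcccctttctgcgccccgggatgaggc

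Each deposited list holds the regions of 1 library that passed a top 1% threshold on signal, and the CTCF lists held 4673 peaks in the control, 6728 after ICM and 8577 in senescent cells, against 14883, 17809 and 12927 peaks for SMC1. The number of reads per library is unknown from these lists, and a gene without a peak was only below the entry level of that list. That level differed, with a lowest total signal (coverage summed over a peak) of 14246, 20161 and 6267 in the 3 CTCF lists and of 3456, 2455 and 2796 in the 3 SMC1 lists. No common scale between lists could be established, so a peak is described by its percentile by total signal within its own list. This is its rank, counted from the lowest with ties averaged, as a percentage of the number of peaks in the list.

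CTCF peaks in the region were crowded into the gamma cluster and its surroundings, and the alpha cluster was empty. Of the CTCF peaks, 9 from control, 14 from ICM and 13 from senescent cells fell in the region, which is 9.71, 15.1 and 14.0 peaks per Mb, while chromosome 5 as a whole held 1.11, 1.68 and 1.90 per Mb. In CTCF lists cut to the length of the shortest by total signal, the counts were 9, 8 and 8. For SMC1 the counts were 11, 9 and 9 peaks (11.9, 9.71 and 9.71 per Mb, against 4.39, 5.29 and 3.63 on the chromosome). These densities take no account of how closely genes are packed. The share of genes with a promoter peak, given below, is counted per gene. Within the gamma cluster (182 kb) there were 5, 8 and 5 CTCF peaks and 4, 2 and 5 SMC1 peaks in control, ICM and senescent cells.

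The 226 kb of the alpha cluster and the 39.0 kb between alpha and beta contained no peak in any of the 6 lists. The beta cluster (198 kb) held 2 CTCF peaks, both in the senescent list, and no SMC1 peak. The 81.1 kb between beta and gamma, which include the gene TAF7, held 2, 2 and 3 CTCF peaks and no SMC1 peak. Upstream of PCDHA1 the 100 kb flank held 3, 3 and 1 SMC1 peaks and no CTCF peak. The one position where whole peaks of all 3 conditions overlapped was at the neighbouring promoters of HARS1 and HARS2, which encode histidyl-tRNA synthetases.

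**Figure D1:**
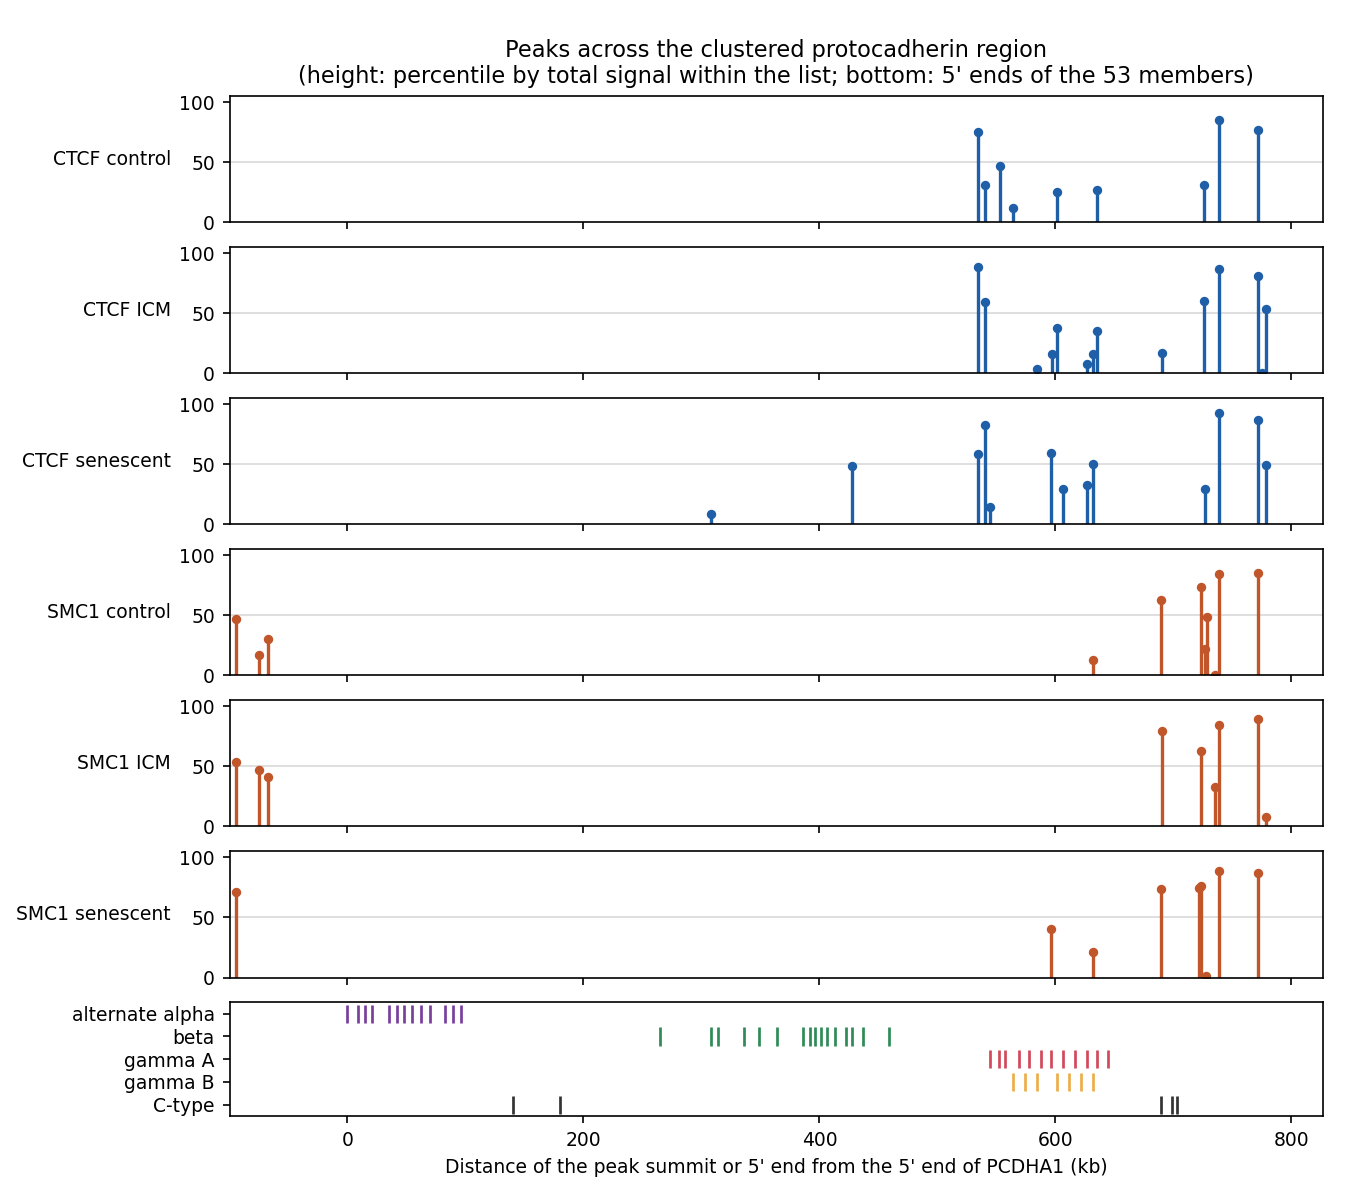
Peaks of the 6 lists along the region, by distance of the summit from the 5′ end of PCDHA1 (x axis, kb), with the percentile by total signal within the list as height (y axis, 0 to 100). The bottom panel marks the 5′ ends of the 53 members by subfamily, and shows that the stretch over the alpha genes is empty in all 6 lists while the gamma genes carry many low CTCF peaks.

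A member was counted as having a promoter peak when a summit lay within 1 kb of its 5′ end. By this count 13 of the 53 members had a CTCF promoter peak in at least 1 list, namely 6 of 12 gamma A genes, 4 of 7 gamma B genes, 1 of 5 C-type genes, 2 of 16 beta genes and 0 of 13 alternate alpha genes. No member had one in all 3 lists, 5 had one in 2 lists and 8 in a single list. Of the 2811 protein-coding genes with a CTCF promoter peak in at least 1 list, 47.8% had one in all 3.

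Gamma A proteins are adhesion molecules of the largest gamma subfamily, and their 6 bound promoters were spread over all 3 conditions. PCDHGA2 had a peak in the control list at chr5:141338338-141339672 (total signal 22106, percentile 47.0) and in neither of the other lists. PCDHGA11 had one in the control list (17831, percentile 26.4) and in the ICM list (27517, percentile 35.2), with summits 29 bases apart, and none in the senescent list. These were the only gamma A promoters listed in control cells.

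PCDHGA7 had a peak in the ICM list (23028, percentile 16.3) and in the senescent list (12021, percentile 59.3), with summits 240 bases apart. PCDHGA10 had one in the same pair of lists (21493, percentile 7.71, and 8688, percentile 33.0), with summits 66 bases apart. PCDHGA1 (7146, percentile 14.1) and PCDHGA8 (8343, percentile 29.4) were listed in senescent cells only. Neither PCDHGA7 nor PCDHGA10 had a control peak, and the remaining 6 gamma A genes (PCDHGA3, PCDHGA4, PCDHGA5, PCDHGA6, PCDHGA9 and PCDHGA12) had a promoter peak in no list.

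Gamma B genes alternate with gamma A genes along the cluster and encode adhesion proteins of the same build. PCDHGB4 had the same summit, at position 141387731 and 33 bases after its 5′ end, in the control list (17566, percentile 24.9) and in the ICM list (28222, percentile 37.7), and no peak in the senescent list. PCDHGB7 was listed in ICM (22960, percentile 15.96) and senescent cells (10685, percentile 50.4), with summits 30 bases apart. PCDHGB1 was listed in the control alone (15566, percentile 11.6) and PCDHGB3 in ICM alone (20832, percentile 3.82). The remaining 3 gamma B genes (PCDHGB2, PCDHGB5 and PCDHGB6) had a CTCF promoter peak in no list.

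C-type genes are more divergent members at the ends of the alpha and gamma clusters, and in neurons they are not subject to random promoter choice in the way the other members are. Of the 5, PCDHGC3 alone had a CTCF promoter peak, in the ICM list (chr5:141475444-141477136, total signal 23158, percentile 17.02), with its summit 440 bases after the 5′ end. Among beta genes, which encode proteins without the constant part, PCDHB2 (6787, percentile 8.30) and PCDHB13 (10449, percentile 48.6) had a peak in the senescent list, 3 and 63 bases before the 5′ end. No alpha gene, alternate or C-type, had a peak of either antibody, and the exact 95% interval of 0 of 15 reaches up to 21.8%, by counting error alone.

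**Figure D2:**
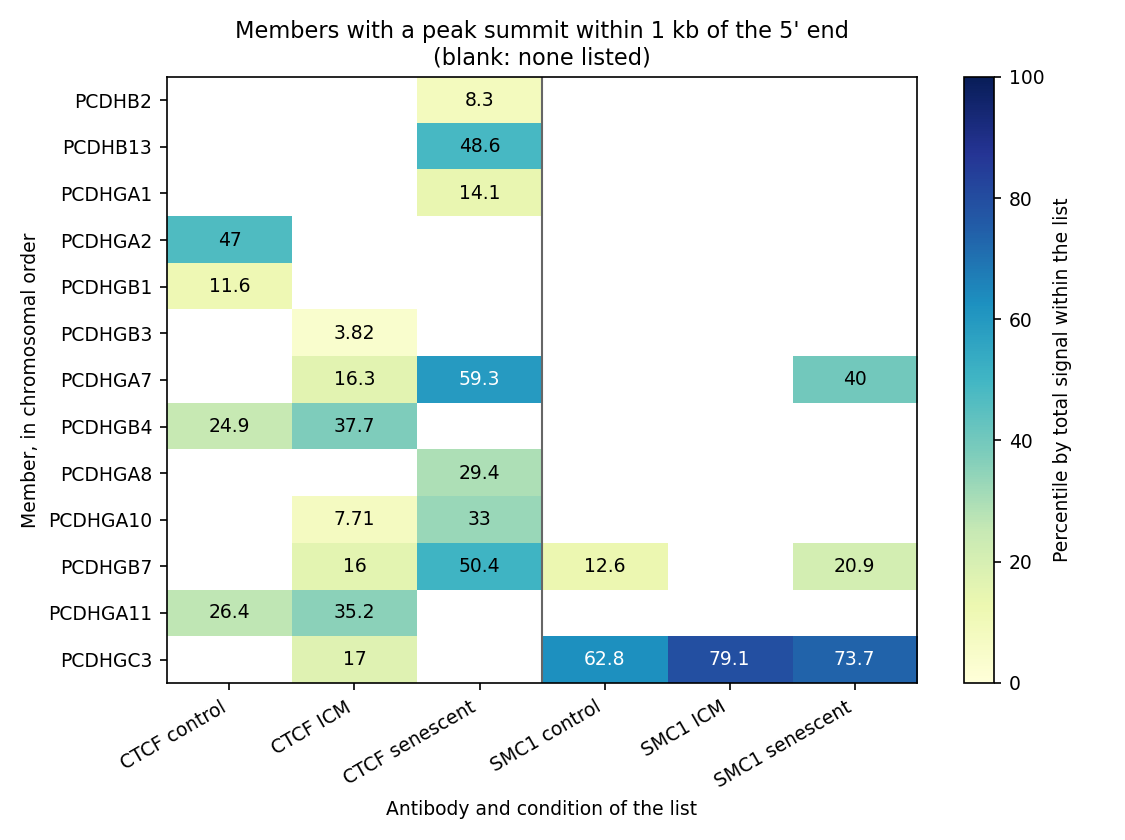
The 13 members with a CTCF or SMC1 promoter peak (rows, in chromosomal order) against the 6 lists (columns), with the percentile by total signal printed and shaded in each filled cell. CTCF cells are filled in at most 2 of the 3 conditions for every member, and the SMC1 row of PCDHGC3 is filled in all 3.

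The share of members with CTCF at the promoter was close to that of protein-coding genes in general. A CTCF promoter peak was listed for 4 of 53 members in control cells (7.55%, exact 95% binomial interval 2.09 to 18.2), for 7 after ICM (13.2%, 5.48 to 25.3) and for 7 in senescent cells (13.2%). Over all protein-coding genes the shares were 8.76%, 12.6% and 9.55%, and each lay within the members' interval. Among the 22 gamma genes, the count was 4 (18.2%, 5.19 to 40.3), 7 (31.8%, 13.9 to 54.9) and 5 (22.7%, 7.82 to 45.4), and the lower bound was above the share of all genes for ICM alone. These intervals cover counting error over genes and not the spread between libraries.

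The counts per condition moved with the length of the lists. When the CTCF lists were cut to equal length at the 4673 peaks of highest total signal, 4 members remained counted in control, 2 after ICM (PCDHGB4 and PCDHGA11) and 3 in senescent cells (PCDHB13, PCDHGA7 and PCDHGB7). No order of the 3 conditions held in both settings.

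For SMC1 a promoter peak was listed for 2 members in control (3.77%), 1 after ICM (1.89%) and 3 in senescent cells (5.66%), whereas the shares of all protein-coding genes were 31.6%, 27.6% and 22.3%. The upper bounds of the members' intervals, shown in the plot of shares, lay below the share of all genes in each of the 3 conditions.

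**Figure D3:**
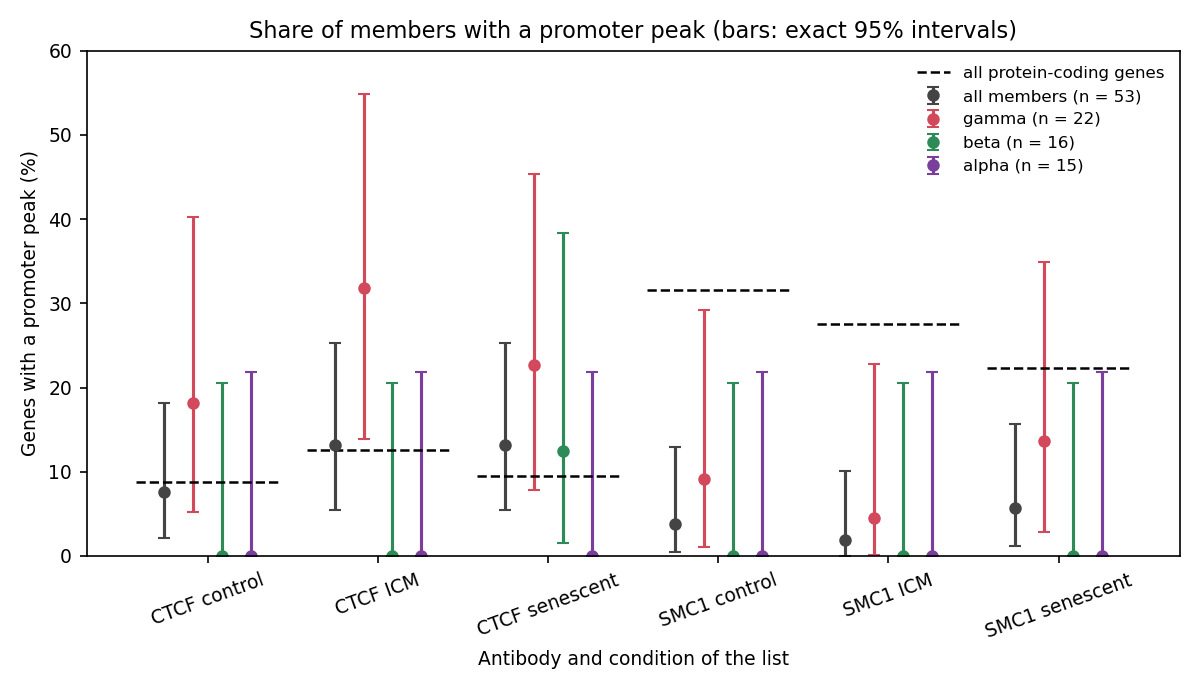
Share of genes with a promoter peak (y axis, %) in each of the 6 lists (x axis) for all 53 members and for the gamma, beta and alpha genes, with exact 95% binomial intervals as bars and the share of all protein-coding genes as a dashed line. Members straddle the dashed line for CTCF and stay below it for SMC1.

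The members that carried CTCF were mostly not the same from list to list. Of the 4 members with a promoter peak in control cells, 0 had one in senescent cells, while this was so for 80.6% of the protein-coding genes with a control peak, and for 64.9% of those whose control peak was below percentile 50, where all 4 member peaks were. From control to ICM, 2 of the 4 members (PCDHGB4 and PCDHGA11) were listed again, against 93.8% of all genes and 89.0% of those with a low-ranked control peak. From ICM to senescent, 3 of the 7 members (PCDHGA7, PCDHGA10 and PCDHGB7) were listed again, a share of 42.9% that compares with 65.0% of all genes and with 41.3% of those below percentile 50. With 4 or 7 members and 1 library per group these shares describe the lists, and the exact interval of 0 of 4 reaches up to 60.2%.

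All 7 senescent CTCF peaks at members had a total signal (6787 to 12021) below the lowest total signal of the control list, and so had 69.5% of the whole senescent list. As the lists have no common scale, this describes their entry levels and compares no binding. Whether the entry level of the lists has a part in which members were listed was not tested.

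The CTCF summits sat close to the 5′ ends, 17 of the 18 within 200 bases. In control and ICM cells 10 of 11 lay after the 5′ end, with medians of 30.5 and 40 bases after it, whereas in senescent cells all 7 lay before it, with a median of 36 bases (-36 on the strand of the gene). Over all genes with a CTCF promoter peak, the median was 74, 56 and 92 bases before the 5′ end (-74, -56 and -92), with 36.9%, 40.1% and 30.5% of summits after it. PCDHGA7 and PCDHGA10, listed in both ICM and senescent cells, had summits on opposite sides of it in these lists, 170 and 62 bases after it in ICM and 70 and 4 bases before it in senescent cells. PCDHGB7, also listed in both, had its summit before the 5′ end each time, by 2 bases in ICM and by 32 bases in senescent cells. This pattern was noticed after the values were seen and was not tested.

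Relative to the CGCT box chosen as in the printed lines, senescent summits at members with a promoter sequence were between 25 bases before (-25, PCDHB13) and 52 bases after it (PCDHB2). In control and ICM cells they were between 34 (PCDHGB3) and 491 bases (PCDHGC3) after it. The senescent members had 1 such box each, whereas PCDHGB1, PCDHGB3 and PCDHGB4 had 2 and PCDHGC3 had 5. Both ends of the control and ICM range thus depend on which box was chosen. For control and ICM members with 1 box, the summits were between 52 (PCDHGB7) and 247 bases (PCDHGA7) after it. In the printed gamma A lines, the pair of letters just before CGCT was GC in 6 members, of which 5 had a CTCF peak in some list, and GT in 5, of which 1 (PCDHGA2) had one. PCDHGA9 has GC and no peak. This count was also made after the peaks were known, over 11 promoters, and is given as a description.

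**Figure D4:**
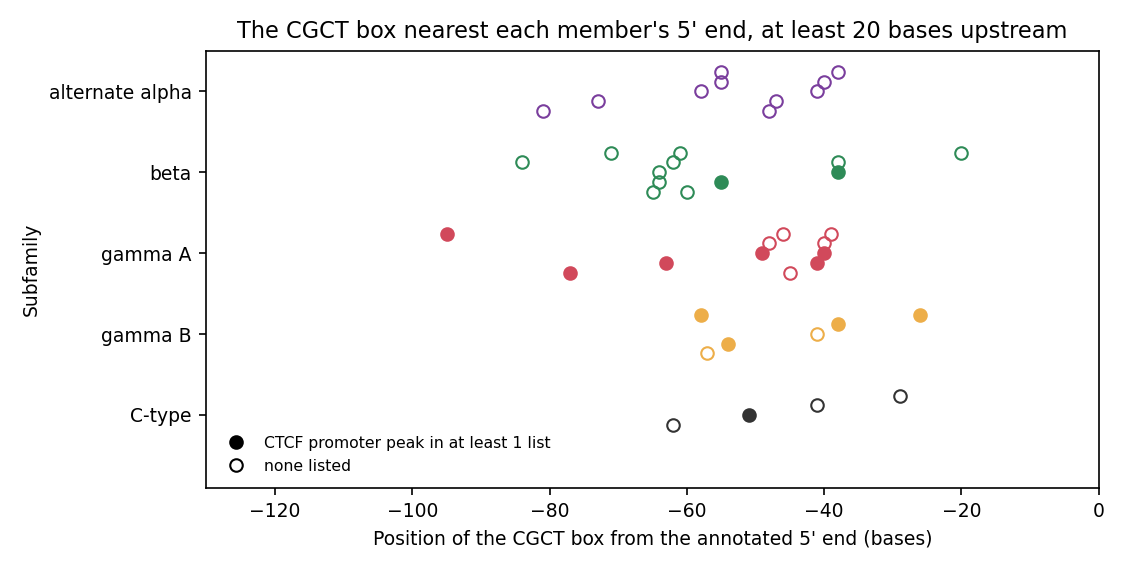
Distance of a CGCT box from the 5′ end (x axis, bases, 0 being the 5′ end) for 43 members, taking the nearest box at least 20 bases upstream, by subfamily (rows, points spread vertically for legibility). Filled points had a CTCF promoter peak in at least 1 list, and they lay 26 to 95 bases before the 5′ end, against 20 to 84 bases for the open points.

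SMC1 was found at 3 members, and the one found in all 3 conditions was PCDHGC3. Its SMC1 peaks stood at percentile 62.8 in control (total signal 6952), 79.1 after ICM (6142) and 73.7 in senescent cells (5481). Ranked by highest signal instead, they stood at percentiles 63.5, 22.3 and 40.1, so the order of the conditions differed between the measures. The ICM peak was 1845 bases wide, against 1172 in control and 1299 in senescent cells. The summits lay 88 bases before, 665 bases after and 3 bases before the 5′ end, so the ICM peak was centred elsewhere than the other two. PCDHGB7 was listed in control (3858, percentile 12.6) and senescent cells (3205, percentile 20.9), and PCDHGA7 in senescent cells alone (3740, percentile 39.998).

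CTCF at a member promoter was rarely accompanied by SMC1 in the same condition. With 100-bp windows on the summits, 0 of 4 CTCF promoter peaks overlapped an SMC1 peak in control, 0 of 7 after ICM and 2 of 7 in senescent cells (PCDHGA7 and PCDHGB7). Letting whole peaks overlap added PCDHGC3 after ICM. Over the whole region 1 of 9, 2 of 14 and 3 of 13 CTCF peaks had an SMC1 partner (11.1%, 14.3% and 23.1%), compared with 48.9%, 46.6% and 34.8% of all CTCF peaks of the lists. In each condition this count left out 1 of the DIAPH1 sites described below, where the CTCF and SMC1 summits were 121, 100 and 121 bases apart. The exact intervals for the region reached up to 48.2%, 42.8% and 53.8%, so the share of the whole list was above the interval in control and ICM and within it in senescent cells. Counted by whole peaks, the region had 3, 4 and 4 with a partner, and the shares of the whole lists were 75.8%, 72.6% and 50.2%.

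Member promoters carried weak CTCF peaks for their lists. The median percentile by total signal of the 18 CTCF peaks at members was 25.7, and 16 of the 18 were below percentile 50, the exceptions being PCDHGA7 and PCDHGB7 in senescent cells. In control, ICM and senescent lists the member medians were 25.7, 16.3 and 33.0, while promoter peaks of all protein-coding genes had medians of 57.2, 54.0 and 53.5. By highest signal, the second measure in the lists, the member medians were 28.8, 26.5 and 41.0 against 48.5, 42.4 and 41.0, so that in senescent cells the difference was not seen on this measure.

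By total signal, the strongest peaks of the region lay beside the genes rather than at their promoters. For each list the 2 peaks of highest total signal were taken, and 11 of these 12 were inside DIAPH1, the neighbouring gene downstream, which encodes a formin that nucleates actin filaments. The exception was the ICM CTCF peak at the promoter of TAF7, a subunit of the general transcription factor TFIID.

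One DIAPH1 site had CTCF summits at 141524929, 141524871 and 141524934 in control, ICM and senescent cells, at percentiles 85.3, 86.3 and 92.4, and SMC1 at 84.0, 84.8 and 88.4. The other had CTCF summits at 141557980, 141557980 and 141558003, at percentiles 76.5, 80.9 and 86.6, and SMC1 at 85.4, 89.3 and 87.1. The CTCF and SMC1 summits were between 29 and 121 bases apart at these sites. Both antibodies thus ranked high at both sites in each condition. CTCF ranked lower than this at every member promoter. For SMC1 the contrast was smaller, since its PCDHGC3 promoter peaks stood at percentiles 62.8, 79.1 and 73.7.

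Nearer to the genes, a CTCF peak with its summit at 141326263, the same base in all 3 lists, lay 4251 bases before the 5′ end of PCDHGA1, at percentiles 30.8, 59.5 and 83.1, with no SMC1 peak in any list. At the common 3′ end of the gamma genes (position 141512975), CTCF peaks had summits 663, 444 and 432 bases before the end, at percentiles 31.0, 60.003 and 29.6. By highest signal these CTCF peaks ranked low in their lists, at percentiles 0.642, 13.4 and 9.93, and they were 3282, 3196 and 979 bases wide. An SMC1 peak lay 3634, 3672 and 3634 bases before that end in the 3 conditions, at percentiles 73.7, 63.1 and 76.3 (82.5, 58.9 and 84.7 by highest signal). Other SMC1 peaks lay around the end in control and senescent cells. Control cells had one 83 bases before the end, at percentile 22.4 (0.682 by highest signal) and overlapping the CTCF peak. A further control peak lay 1586 bases after the end, and senescent cells had one 4687 bases before and one 1180 bases after it. The control and senescent peaks after the end overlapped as whole peaks, with summits 406 bases apart. These sites lie on either side of the gamma promoters, and the promoter of TAF7, further upstream, also had CTCF in all 3 lists (percentiles 74.7, 88.8 and 58.9).

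Joined over the 3 conditions by their summit windows, the CTCF peaks of the region formed 23 loci, of which 3 were held by all 3 lists (13.0%, against 26.9% of all CTCF loci). These 3 were the site before PCDHGA1 and both DIAPH1 sites. The SMC1 peaks formed 17 loci, of which 3 were held by all 3 lists (17.6%, against 20.2% of all SMC1 loci), namely both DIAPH1 sites and the site before the gamma 3′ end. Of the 23 CTCF loci, 3 were held by control and ICM alone (5.07% of all CTCF loci), 4 by ICM and senescent cells alone (13.0% of all) and 0 by control and senescent cells alone, a class that was also small among all CTCF loci (3.71%). These classes depend on the summit windows, which split the TAF7 promoter and the gamma 3′ end, where peaks of all 3 lists overlapped. Joined by whole peaks, 5 of 20 CTCF loci were held by all 3 lists (25%, against 41.4% of all). Control and ICM alone then held 2, and ICM and senescent cells alone held 4.

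**Figure D5:**
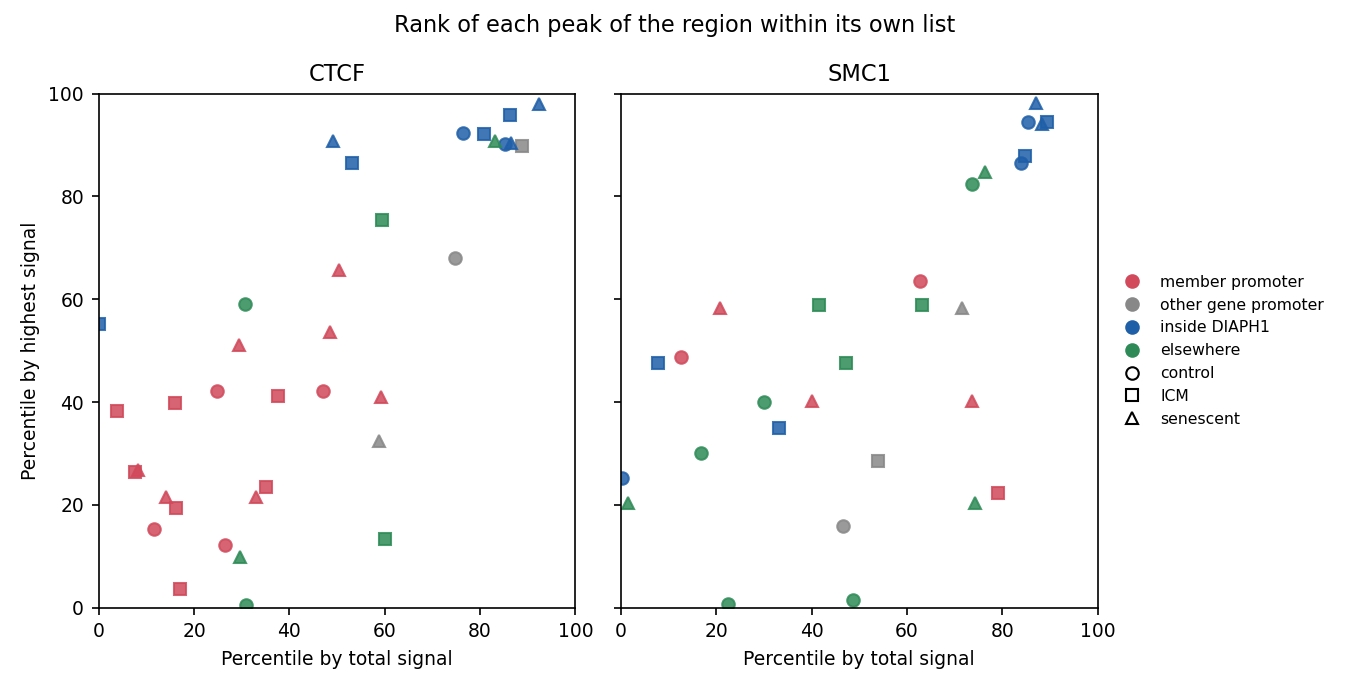
Percentile by highest signal (y axis) against percentile by total signal (x axis) for each CTCF (left) and SMC1 (right) peak of the region within its own list, coloured by kind of position and shaped by condition. CTCF peaks at member promoters lie at or below percentile 59.3 by total signal, and the DIAPH1 peaks listed in all 3 conditions lie to the upper right for both antibodies.

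The same counts were made for 3 other groups of genes. Non-clustered protocadherins are single genes with related adhesion domains, and of 11 genes 1, 2 and 1 had a CTCF promoter peak (PCDH1 in all 3 lists, PCDH9 in ICM) and 4, 4 and 2 an SMC1 promoter peak. Of 14 genes that encode CTCF, cohesin, its loaders and other regulators of these clusters, 5, 6 and 3 had a CTCF and 11, 7 and 6 an SMC1 promoter peak. HOX genes, another clustered developmental family, had 2 of 39 with CTCF in each condition (HOXA5 and HOXB5) and 4, 1 and 0 with SMC1. The HOX genes with CTCF were the same pair in all 3 lists, while 0 of the 13 clustered protocadherins with CTCF were in all 3, and this difference was not tested.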

How the data were processed

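CUT&Tag was performed once per antibody and condition. Per the methods of the study, paired-end reads were mapped to hg38 with Bowtie 2 (version 2.3.4.1 in the submitters' processing notes, which also name Picard 2.20.7, SEACR 1.3 and deepTools) and scaled by E. coli reads. The authors called peaks in each library separately, and the deposited lists give total and highest signal (coverage) per peak, all whole numbers. The methods describe a CTCF motif filter, but the deposited CTCF lists exceed the filtered sets in length, so it may not have been applied and a listed CTCF peak may lack a motif. Here, summits were the midpoints of the regions of highest signal. Gene positions came from RefSeq (GRCh38), and strand from its promoter table or by symbol from GENCODE, which gave a 5′ end for 98.1% of protein-coding genes. Each peak went to the protein-coding gene with the nearest 5′ end. Exons on GRCh38 were not analysed here. Peaks were shared when 100-bp windows on their summits overlapped. Shares carry exact Clopper-Pearson 95% intervals for counting error only. Every member with a promoter peak was named, and per list the 2 peaks of highest total signal. Alternatives were other promoter distances, whole peaks, 500-bp windows, equal-length lists, no flank and other gene sets. The members and gene lists were chosen with earlier results of these data known. The counting steps were tested on simulated data. Python 3.11.15, pandas 2.3.3, numpy 2.4.6, scipy 1.17.1 and matplotlib 3.10.9 were used.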

Additional observations from a re-analysis of the deposited data

Results flagged for a closer look

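In the complete lists, the number of peaks in the region differed from control in opposite directions for the antibodies. For CTCF it was higher by 5 in ICM-treated and by 4 in senescent cells than in control cells. For SMC1 the difference from control was -2 in both. With 1 library per group, this contrast between CTCF and SMC1 was not tested. The contrast was not kept in lists of equal length by total signal, where CTCF counts were 9 in control, 8 after ICM and 8 in senescent cells and SMC1 counts were 9, 8 and 9. Without the flanks, SMC1 counts were 4, 2 and 5, so that senescent cells were above control.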

How the results depend on the processing

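No paired analysis was possible because each group has 1 library and no replicate numbers. Of the values recomputed, 60 stayed close to the stated ones by a loose rule and 27 moved. The order of the conditions changed with list length and flanks. Counted as close were, for example, 10 CTCF peaks after ICM without the flanks, against 14 with them. So was the median percentile of senescent SMC1 peaks, which was 73.7 by total and 58.3 by highest signal. Equal-length lists by total signal gave 2 members with a CTCF promoter peak after ICM and 3 in senescent cells, 1 member with SMC1 in control, and 8 CTCF peaks in the region for ICM and 8 for senescent cells. By highest signal these were 3 and 3 members, 9 and 7 peaks, and 0 members with SMC1 after ICM, which was also the count at 500 bp (0), since the PCDHGC3 summit is 665 bases from the 5′ end. Without the flanks the SMC1 peaks numbered 4, 2 and 5. Peaks assigned to members by SMC1 were 7, 4 and 7 among protein-coding genes, became 11 and 9 for control and ICM with members alone, and 2, 1 and 3 among all annotated genes. Loci held by all 3 lists became 5 for CTCF (whole peaks and 500-bp windows) and 5 for SMC1 (whole peaks). CTCF peaks with SMC1 became 3 in control and 4 after ICM with whole peaks, 2 and 4 with 500-bp windows, and 1 after ICM in equal-length lists. The fewer peaks in equal-length lists follow from their construction. The cause of the other shifts was not tested. Total reads per library are unknown, so absence from a list is a limit of rank and not of binding.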
